A study of Xenopus laevis with 3 samples.

Results

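Pregnenolone was set against its solvent, DMSO, in the liver of female African clawed frogs (Xenopus laevis). Each group was 1 Affymetrix array of pooled liver RNA, and the series holds 3 such arrays. One group was injected intraperitoneally with pregnenolone at 50 mg/kg, one with DMSO alone and one with artemisinin at 200 mg/kg, and both compounds were dissolved in DMSO. Injections were given on 2 consecutive days, 3 frogs received each compound, and the number of control frogs is not spelled out. The frogs lived in water at 22 °C and were killed 24 h after the second injection. Their strain and age are not stated. The compared members are the 16270 of 32539 probe sets, controls left out, whose mean over the 3 arrays reached that of the median probe set. They cover 7478 genes with a symbol, of 11303 on the array. The artemisinin array entered this filter and is otherwise shown only beside the comparison, with which it shares the DMSO array.

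The labels give the aim as a search for genes controlled by xlCAR, the constitutive androstane receptor of this frog. In mammals this nuclear receptor and its relative, the pregnane X receptor, bind drugs and steroids in the liver and switch on genes for cytochrome P450 enzymes, conjugating enzymes and transporters. Pregnenolone is made from cholesterol by removal of its side chain and is the precursor of the steroid hormones. The hepatocyte also makes cholesterol, releases glucose, breaks down amino acids and secretes most plasma proteins.

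All levels below are the authors' log2 values, and a difference is the log2 level with pregnenolone minus that with DMSO, so that a difference of 1 is a 2-fold one. With 1 array per group there is no replicate, no error and no test, and a difference caused by pregnenolone cannot be told apart from one between frogs, RNA pools or arrays. In pooled tissue, fewer cells of a type and less RNA per cell cannot be told apart either. Most genes of this allotetraploid species have a copy in the long (.L) and one in the short (.S) chromosome set, and probes may bind both copies or a paralog.

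The tissue label was checked against cell type markers. Of 21 hepatocyte markers on the array 20 passed the filter, and their summed linear level was 183874 with DMSO, 173036 with pregnenolone and 189573 with artemisinin. The DMSO array stood apart in several respects, among them the smooth muscle genes described below and the markers of exocrine pancreas and gut. Of 47 markers of exocrine pancreas and gut 11 passed the filter, and their summed linear level was 9576 with DMSO, 938 with pregnenolone and 1813 with artemisinin. The level of the trypsin gene prss3.S was 11.39 with DMSO, 4.56 with pregnenolone and 4.47 with artemisinin. Its high value was thus in the DMSO pool and both treated pools were low. Among the list were 7 digestive enzyme genes, of which 6 were at least 1.5-fold lower with pregnenolone, and their summed linear level was 8961, 390 and 359. RMA gives no values of 0, and 3 of the 11 list members lay below the filter level of 5.61 with pregnenolone and 0 with DMSO. Some members passed the filter only through their high DMSO value, and over all 47 the median difference was -0.13. What these markers contribute to other genes that were lower with pregnenolone was not tested.

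At least 2-fold higher with pregnenolone were 272 probe sets (1.67% of 16270), and 246 (1.51%) were at least 2-fold lower. At 4-fold the counts were 38 higher and 53 lower, at 8-fold 11 and 24, and at 16-fold 2 and 12. The larger differences were thus more often lower ones, and the digestive enzymes are among them. Of the 272 higher probe sets 33 lay below the filter level with DMSO, and of the 246 lower ones 65 lay below it with pregnenolone. How large such a difference appears rests on the background. Counted by gene, 139 (1.86% of 7478) were at least 2-fold higher and 104 (1.39%) lower, and at 1.5-fold 465 (6.22%) were higher and 376 (5.03%) lower. The median gene differed by 0, and 90% of the genes lay between the 5th percentile of -0.59 and the 95th of 0.66.

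**Figure D1:**
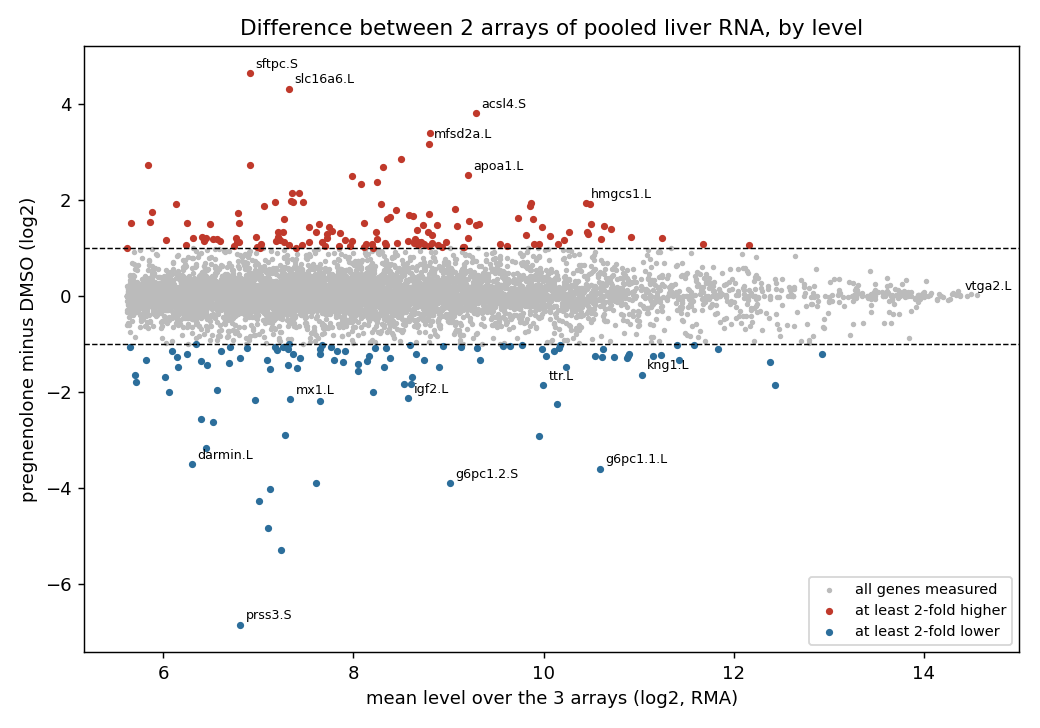
Difference between the pregnenolone and the DMSO array (log2, vertical axis) against the mean log2 level (horizontal axis). Each point is 1 of the 7478 genes above the filter. Most points lie near 0, and 139 lie at or above a 2-fold higher and 104 at or below a 2-fold lower level.

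The share of differing probe sets depended on the level. Of the probe sets with mean levels from 5.61 to 6.42, 0.934% passed 2-fold above DMSO and 1.13% below it. With levels from 8.48 to 14.6 these shares were 2.36% and 1.82%. Values that were exactly equal on both arrays were frequent, at 2545 of the 16270 probe sets (15.6%) and 994 genes. Just inside the filter the mean level was 5.61, and the next probe set outside it was at the same value to 2 decimals. Outside the filter, 50 of 16269 probe sets passed 2-fold above DMSO and 47 below it.

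Of the 30 genes that lay furthest above DMSO, several are described first that handle lipids or act as carriers, an order chosen after their values were seen. The level of slc16a6.L, a carrier that exports ketone bodies from the liver in zebrafish, was 5.36 with DMSO, 9.67 with pregnenolone and 6.93 with artemisinin. For acsl4.S, an enzyme that joins coenzyme A to long-chain and above all polyunsaturated fatty acids, the levels were 7.85, 11.65 and 8.38. The level of mfsd2a.L, which in mammals carries lysophospholipids with docosahexaenoic acid, was 7.57 with DMSO, 10.73 with pregnenolone and 8.08 with artemisinin. Each of these 3 genes was highest on the pregnenolone array, and the artemisinin value lay between the others. For sftpc.S, whose product is a surfactant protein of the mammalian lung, the levels of 5.38 with DMSO and 5.35 with artemisinin lay below the filter level, and the level with pregnenolone was 10.005. The magnesium carrier family gene slc41a3.L (7.80 with DMSO, 11.18 with pregnenolone, 7.44 with artemisinin) and the water and glycerol channel gene aqp3-a (6.2, 8.92 and 5.62) were likewise high on the pregnenolone array alone.

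Several of the 30 encode enzymes that make cofactors or lipid building blocks. The riboflavin kinase gene rfk.L, which makes flavin mononucleotide, had levels of 6.25 with DMSO, 8.40 with pregnenolone and 7.40 with artemisinin. The inositol phosphate synthase gene isyna1.S, which starts inositol synthesis, stood at 6.27, 8.15 and 6.77. For far1.L, a reductase that supplies fatty alcohols for ether lipids, the levels were 8.38, 10.18 and 8.64, and its S copy differed by 0.00. All of these were highest with pregnenolone. The gene mid1ip1.L, whose product in mammals promotes the assembly of acetyl-CoA carboxylase, was 3.93-fold higher with pregnenolone (6.46 and 8.44). The methionine adenosyltransferase gene mat2a.L, which makes the methyl donor S-adenosylmethionine, was 3.65-fold higher (9.02 and 10.89), and its 3 probe sets above the filter differed by 1.05 to 2.17.

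Signalling genes of the 30 were also above DMSO on the artemisinin array. The level of the kinase gene pim3.L was 6.65 with DMSO, 9.33 with pregnenolone and 8.94 with artemisinin, and that of pim3.S was 6.84, 9.16 and 8.23, with a difference of 0.67 at its second probe set. The level of ikbkb.L, a kinase that activates NF-kappaB, was 6.21 with DMSO, 8.35 with pregnenolone and 7.73 with artemisinin. For these 3 genes both treated arrays lay above the control. The precursor gene of the neuropeptide substance P, tac1.S, had 6.71 with DMSO, 8.65 with pregnenolone and 7.06 with artemisinin. Its artemisinin value was above DMSO too, but nearer to DMSO than to pregnenolone. The glutathione transferase gene gstp1.L and the mitochondrial protein gene higd1a.L were higher with artemisinin (11.93 and 9.45) than with pregnenolone (10.73 and 8.84), and lowest with DMSO (8.81 and 7.05).

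Among the 30 lowest genes were 6 digestive enzyme genes and 5 copies of glucose-6-phosphatase. Of the others, the Rab11-binding family gene rab11fip4l.L had a level of 7.60 with DMSO, 5.04 with pregnenolone and 6.53 with artemisinin. The level of darmin.L, a peptidase family gene known from the endoderm of frog embryos, was 7.65, 4.14 and 7.12. The level of nat16.S, an acetyltransferase gene, was 7.87, 4.70 and 6.78. The pregnenolone array was lowest for all 3, and its values lay below the filter level. The quinone reductase family gene cryz.L (9.16 with DMSO, 7.17 with pregnenolone, 8.28 with artemisinin), cnrip1.L, named for binding the cannabinoid receptor (8.17, 6.00 and 6.73), and the dicarboxylate carrier gene slc13a2.S (8.76, 7.20 and 8.18) were lower at levels above the filter.

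**Figure D2:**
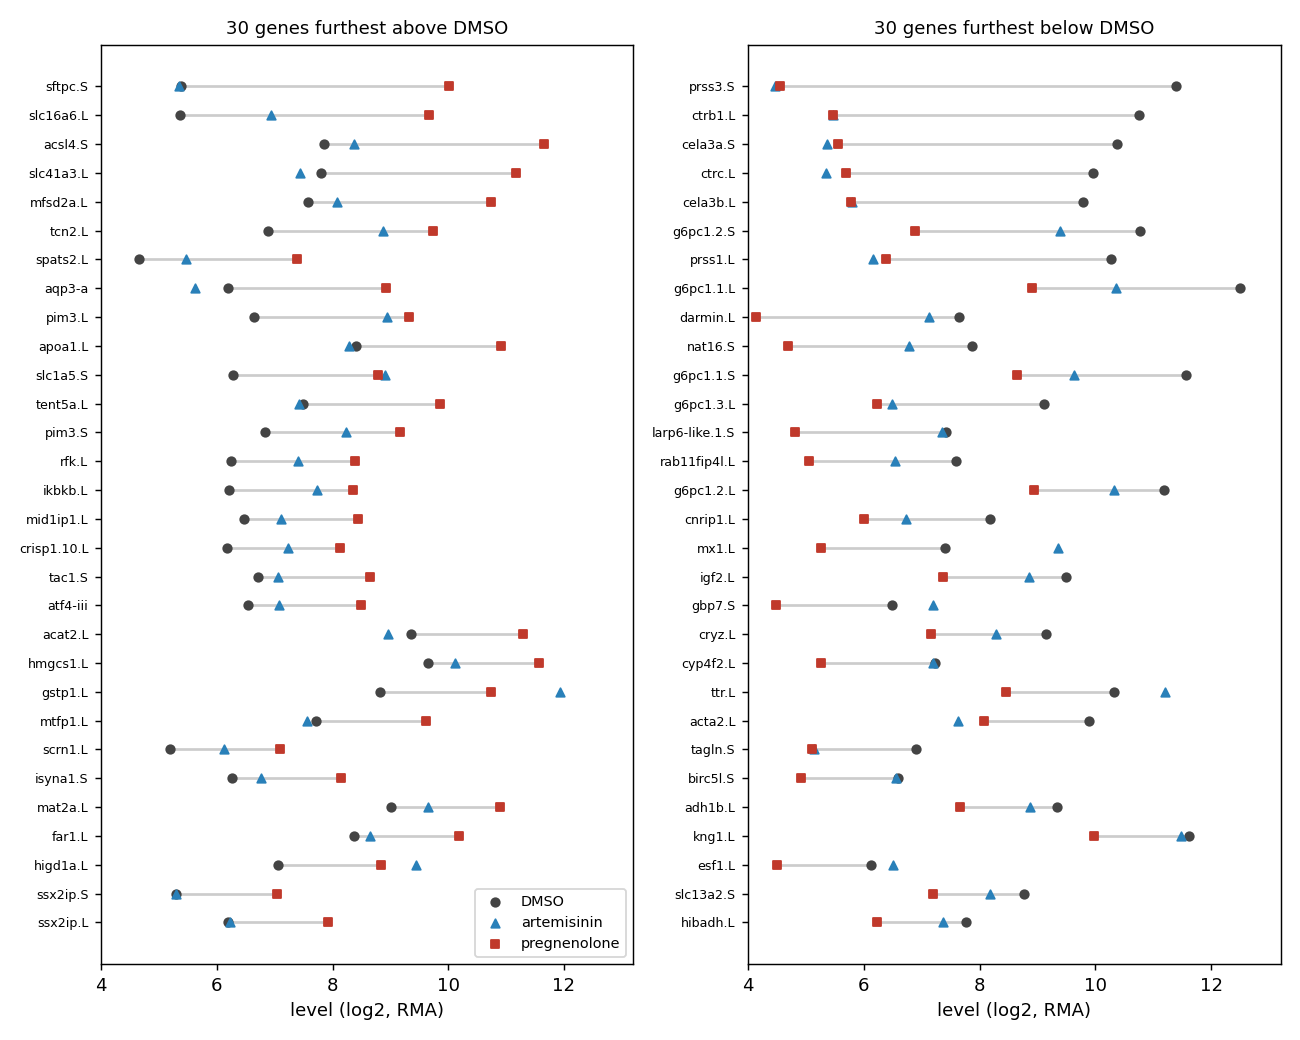
Log2 levels of the 30 highest and 30 lowest genes on the DMSO, pregnenolone and artemisinin arrays, 1 marker per array. The pregnenolone value of sftpc.S (10.005) lies far above both other arrays, whereas prss3.S is high with DMSO (11.39) and low on both treated arrays.

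The sterol pathway was the gene group that lay furthest above DMSO. Of 17 cholesterol synthesis genes on the array 16 passed the filter, 12 passed 1.5-fold above DMSO and 0 below it, and the median difference was 0.93 against 0 over all genes. Their median difference with artemisinin was -0.24. The first steps were represented by acat2.L, which makes acetoacetyl-CoA, with levels of 9.35 with DMSO, 11.29 with pregnenolone and 8.96 with artemisinin, and by hmgcs1.L, which makes HMG-CoA, with 9.64, 11.57 and 10.11. Both were higher with pregnenolone than on either other array. In the isoprenoid steps, fdps.S, whose enzyme makes farnesyl diphosphate, differed by 0.99 and fdps.L by 0.73 (1.48 at its other probe set), and idi1.L differed by 0.63. Past lanosterol, the demethylase gene cyp51a1.L stood at 9.58, 10.67 and 9.59, and cyp51a1.S at 10.07, 11.01 and 9.77. The isomerase gene ebp.L differed by 1.48, nsdhl.L by 1.0, hsd17b7.S by 0.92 and tm7sf2.L by 0.77. The 4 members within 1.5-fold were dhcr7.L (0.53), sc5d.L (0.48), dhcr7.S (0.01) and pmvk.L (-0.02), so the genes of the last steps, dhcr7 and sc5d, were among those that differed least. Second probe sets gave 1.58 for hmgcs1.L and 0.69 for cyp51a1.L.

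The regulators and users of cholesterol differed less. Of 14 genes of cholesterol uptake and sensing, 1 was higher at 1.5-fold and 1 lower (7.14% each, near the 6.22% and 5.03% of all genes). Their median was 0.00. The higher one was srebf2.L, the transcription factor that controls the sterol pathway, with levels of 8.23 with DMSO, 8.92 with pregnenolone and 8.54 with artemisinin, although its other probe set differed by 0.08. The lower one was soat2.S, which esterifies cholesterol, with 9.42, 8.51 and 9.45. The feedback protein gene insig1.L differed by 0.53 and insig1.S by -0.02. Of 11 genes of bile acid synthesis 1 was higher (9.09%) and 3 lower (27.3%). The higher one was scp2.L (0.61), whose other probe set went the opposite way at -0.83. Among the lower ones acox2.L, an oxidase that shortens the side chain, differed by -0.67.

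In the list of fatty acid and triglyceride synthesis 8 of 36 genes passed 1.5-fold above DMSO and 1 below it, and the median was 0.00. The desaturase gene fads2.L had levels of 10.87 with DMSO, 11.81 with pregnenolone and 10.61 with artemisinin, and fads2.S had 7.22, 8.34 and 6.24. The elongase gene elovl1.L differed by 1.12, elovl1.S by 0.81 and elovl2.L by 0.71. The citrate lyase gene acly.L, which makes the acetyl-CoA for both fatty acids and sterols, differed by 0.84. The remaining higher members were agpat3.S (0.81), an acyltransferase of glycerolipid synthesis, and plin2.L (0.96), which coats lipid droplets. The lower one was mogat1.L (-0.64), an acyltransferase of triglyceride assembly. Other genes of elongation and desaturation did not pass 1.5-fold, such as elovl5.S (0.50), elovl5.L (-0.19), scd.S (0.56) and scd.L (-0.10). Among 22 genes of acyl activation and phospholipids 4 were higher (18.2%) and 2 lower (9.09%). Besides acsl4.S and mfsd2a.L the higher ones were acsbg2.L (1.2, with 0.24 at its second probe set) and pcyt1b.S (1.14), a gene of phosphatidylcholine synthesis. The lower ones were the endothelial lipase gene lipg.L, with 8.28, 6.92 and 8.48, and the acyl-CoA synthetase and carrier gene slc27a2.L, with 11.34, 10.09 and 11.23. Of 42 genes of fatty acid oxidation and ketones 3 were higher (7.14%) and 4 lower (9.52%), beside 6.22% and 5.03% of all genes. Besides slc16a6.L the higher ones were ppara.L, the nuclear receptor that controls this pathway (0.78), and the sterol carrier gene scp2.L (0.61). Their other probe sets went the opposite way, at -0.14 for ppara.L and -0.83 for scp2.L.

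**Figure D3:**
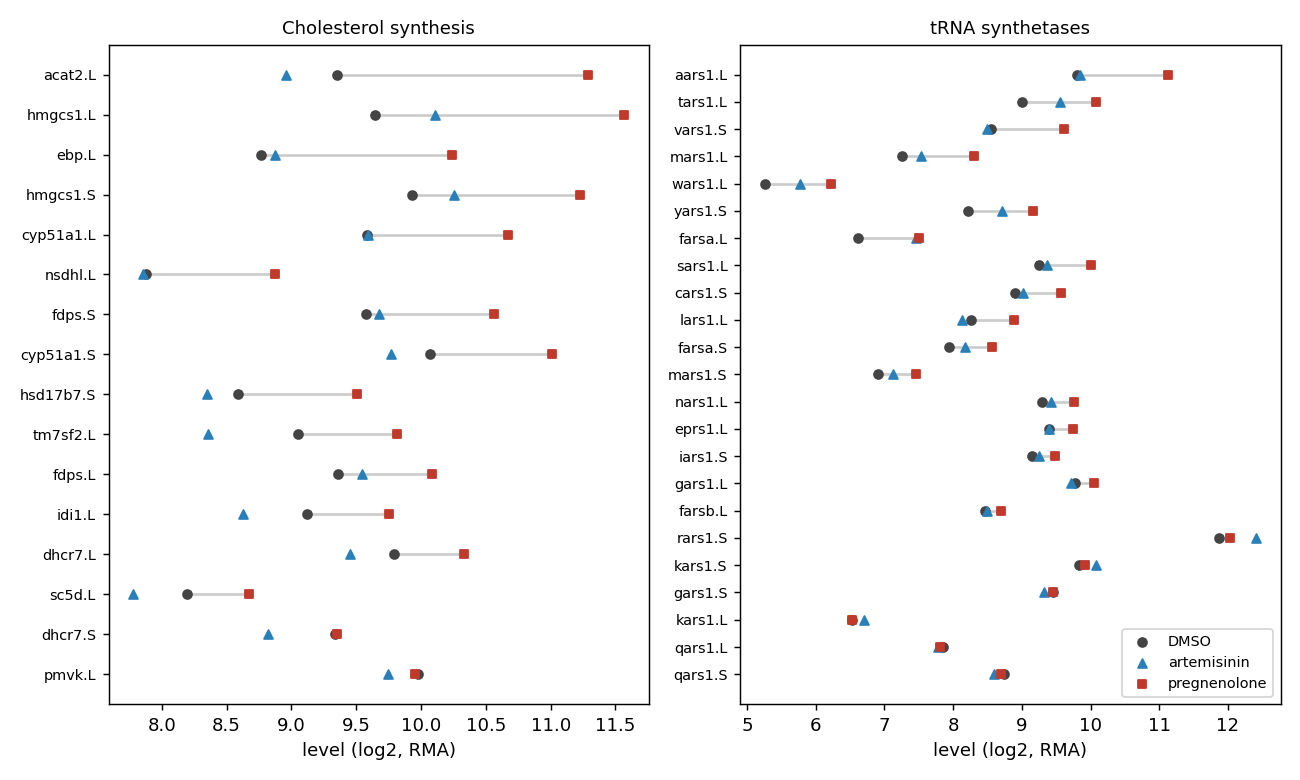
Log2 levels of 16 cholesterol synthesis genes and of the transfer RNA synthetase genes on the 3 arrays, with a line from the DMSO to the pregnenolone value. In the sterol panel the pregnenolone value is the highest of the 3 except for pmvk.L, and acat2.L (1.93) has the longest line.

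Glucose release was the metabolic group furthest below DMSO, and glucose-6-phosphatase carried most of it. This enzyme frees glucose from its phosphate in the last step of gluconeogenesis and glycogen breakdown. The level of g6pc1.1.L was 12.50 with DMSO, 8.91 with pregnenolone and 10.36 with artemisinin, that of g6pc1.1.S was 11.57, 8.65 and 9.63, and that of g6pc1.2.S was 10.77, 6.88 and 9.39. The DMSO array was the highest and the pregnenolone array the lowest in each. The remaining copies, g6pc1.2.L and g6pc1.3.L, differed by -2.24 and -2.88, and the summed linear level of the 5 copies was 13468 with DMSO, 1565 with pregnenolone and 4151 with artemisinin. Of 20 genes of gluconeogenesis 10 lay at least 1.5-fold below DMSO and 0 above it, and the median was -0.53. Without the g6pc1 copies, a subset chosen after its values were seen, 5 of 15 were lower, with a median of -0.35. Its highest member was the lactate dehydrogenase gene ldha.L (0.55). The list thus shares lactate dehydrogenase genes with the account of glycolysis below, and its counts are not specific to glucose release. The glucose-6-phosphate carrier gene slc37a4.L, which feeds glucose-6-phosphatase, differed by -0.71, and the mitochondrial phosphoenolpyruvate carboxykinase gene pck2.L by -0.93. The pyruvate carboxylase gene pc.1.L differed by -0.76 at the probe set used, but its 5 probe sets ranged from there to 0.20, with a mean of -0.12. The cytosolic form, pck1.L, lay below the filter level with DMSO (5.32) and pregnenolone (4.97) and stood at 8.65 with artemisinin.

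Glycolysis and glycogen genes went both ways, with 3 of 49 passing 1.5-fold above and 7 below DMSO and a median of -0.04. These are 6.12% and 14.3% of the list, beside 6.22% and 5.03% of all genes. The higher members were pkm.S (1.09), pgam1.L (0.90) and pgam1.S (0.69), which act in lower glycolysis. Other genes of these steps did not share this, with pkm.L at 0.00, gapdh at 0.01 (L) and 0.17 (S), and eno1 at -0.28 (L) and -0.47 (S). The lactate dehydrogenase genes went both ways, with ldhb.L at -0.65, ldhb.S at -0.76, ldha.L at 0.55 and ldha.S at 0.06. The lower members of the list included the liver glycogen phosphorylase gene pygl.S, which releases glucose units from glycogen. Its levels were 11.53 with DMSO, 10.59 with pregnenolone and 11.53 with artemisinin. Also lower were pfkfb1.S (-0.95, and -0.16 at its other probe set), whose enzyme sets the amount of fructose 2,6-bisphosphate, and gckr.L (-0.70), which holds glucokinase inactive.

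In the list of insulin, fasting and growth signals, 6 of 33 genes were higher and 6 lower at 1.5-fold, and the median was -0.11. That is 18.2% each way, beside 6.22% and 5.03% of all genes. Of the lower ones 4, grouped here after their values were seen, belong to the growth hormone and insulin-like growth factor axis. The level of the growth hormone receptor gene ghr.L was 8.85 with DMSO, 7.37 with pregnenolone and 8.74 with artemisinin. The ligand gene igf2.L had 9.50, 7.37 and 8.85. The genes of their binding partners in plasma were igfals.L, with 10.12, 9.08 and 9.75, and igfbp1.S, with 9.15, 7.94 and 8.88. The pregnenolone array was the lowest of the 3 for each of these 4 genes. The other copies differed less, with -0.34 for igf2.S and 0.02 for igfbp1.L. The higher members included both pim3 copies, pim1.L (0.92), the growth arrest gene gadd45a.S (1.07) and the transcription factor gene cebpd.S (0.79).

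Genes that bring amino acids into the cell and load them onto transfer RNA were higher. Of 19 amino acid carriers 8 passed 1.5-fold above DMSO and 0 below it. Their median was 0.33, and over all 28 on the array, without the filter, it was 0.10. The level of slc7a8.S, a light chain that carries neutral amino acids, was 9.75 with DMSO, 11.18 with pregnenolone and 9.02 with artemisinin, and that of slc7a8.L was 9.56, 10.83 and 9.05. Their shared heavy chain slc3a2 differed by 0.86 (S) and 0.76 (L, with 0.14 at its second probe set). The glutamine carrier gene slc1a5.S had 6.28, 8.78 and 8.91, so both treated arrays lay above DMSO there. Among all 144 solute carriers 26 were higher and 3 lower, and without the amino acid carriers 18 of 125 were higher, with a median of 0.07.

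Transfer RNA synthetases, which charge each transfer RNA with its amino acid, and targets of ATF4, the transcription factor of amino acid shortage, formed a list of 31 genes. Of these 13 passed 1.5-fold above DMSO and 1 below it, and the median was 0.47. The synthetases alone, a subset chosen after its values were seen, had 11 of 23 above and 0 below at that fold, with a median of 0.56. The alanine enzyme gene aars1.L had levels of 9.80 with DMSO, 11.13 with pregnenolone and 9.85 with artemisinin. The threonine enzyme gene tars1.L had 9.0, 10.09 and 9.56, and the valine enzyme gene vars1.S had 8.56, 9.62 and 8.49. In each the pregnenolone array was the highest. The genes kars1.L, qars1.L and qars1.S, for lysine and glutamine, lay close to DMSO on the same plot. Of the remaining members atf5.2.S differed by 1.0, with -0.03 to 1.47 over its 5 probe sets above the filter. The stress protein gene nupr1.L was the lower one at -0.91. The gene atf4-iii, whose symbol places it with ATF4, was not in the list and had 6.55, 8.49 and 7.07, with differences of 1.06 to 1.94 over its 3 probe sets. Of 22 genes of serine, one-carbon and amino acid synthesis 5 were higher and 0 lower, led by pycr1.L, which makes proline (5.87 with DMSO, 7.37 with pregnenolone and 6.25 with artemisinin).

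Amino acid breakdown was lower in part. In a list of 58 genes for the urea cycle and the breakdown of amino acids 16 were lower at 1.5-fold and 5 higher, although the median was -0.06. The lower ones included tdo2.L for tryptophan (11.26 with DMSO, 9.98 with pregnenolone, 10.99 with artemisinin), aldh4a1.L for proline (9.41, 7.93 and 9.38), hibadh.L for valine (7.76, 6.24 and 7.37) and amt.L for glycine (8.67, 7.42 and 8.40). In all 4 the artemisinin value lay between the others and nearer to DMSO. The S copy of hibadh, at a higher level of 8.44 with DMSO, differed by 0.15. The glutamine synthetase gene glul.L was higher, with 8.68, 10.17 and 9.13, and its S copy differed by 0.16. The gene glul-like.1, whose symbol places it with glutamine synthetase, was lower in both copies, by -0.82 for L and -0.59 for S.

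Genes of protein secretion were mostly slightly higher. Of 69 genes of translocation into the endoplasmic reticulum and of secretory traffic 13 passed 1.5-fold above DMSO and 0 below it. Their median was 0.31, and 56 lay above 0 and 10 below. The translocon-associated gene ssr4.L had levels of 10.01 with DMSO, 11.50 with pregnenolone and 9.97 with artemisinin, and the coat protein gene sec24d.L had 5.52, 6.69 and 5.88. The signal recognition particle gene srp9.L differed by 0.97, its receptor gene srprb.L by 0.71 and the coatomer gene copz1.S by 0.79. Of 58 genes of ribosome biogenesis 7 were higher (12.1%) and 0 lower (median 0.19), including nip7.L (0.88) and mrto4.L (0.86, and 0.12 at its other probe set). Of 49 translation factors 5 were higher (10.2%) and 0 lower (median 0.14), and of 55 proteasome genes 4 and 0 (median 0.20). The 4 proteasome genes are 7.27% of their list, near the 6.22% of all genes. In contrast, 0 of 85 cytosolic ribosome genes passed 1.5-fold in either direction, with a median of 0.02. Most members of these lists differed by less than 1.5-fold.

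Chaperones of the unfolded protein response were split, with 8 of 46 higher and 6 lower and a median of 0.05. The co-chaperone gene dnajb9.L had levels of 10.09 with DMSO, 11.49 with pregnenolone and 10.53 with artemisinin, and the BiP gene hspa5.S had 10.10, 11.32 and 11.33. Lower were the ER chaperone gene hsp90b1.L (13.32, 12.35 and 12.69) and the disulfide isomerase gene pdia6.S (12.24, 11.31 and 11.55). For both of these the DMSO array was the highest of the 3, as it was for the digestive enzymes of the pancreas, and whether the source of those enzyme levels bears on them was not tested.

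Genes of plasma proteins were more often lower. Of 30 complement and acute phase genes 9 passed 1.5-fold below DMSO (30%) and 1 above it (3.33%), beside 5.03% and 6.22% of all genes. The median was -0.48. In the alternative pathway, cfb.S had levels of 11.80 with DMSO, 10.46 with pregnenolone and 12.02 with artemisinin, and cfb.L had 11.70, 10.87 and 12.05. In the classical pathway, the proteases c1r.L and c1s.L differed by -1.11 and -1.01 and their substrate c4a.L by -0.82, and in the lectin pathway masp2.S differed by -0.91. The membrane attack gene c6.1.L had 11.70, 10.45 and 11.32. All 3 entry routes of complement thus had a member below DMSO, and the higher gene of the list was socs3.S (0.71), an inhibitor of cytokine signalling. Of 27 genes of coagulation and protease inhibition 8 were lower (29.6%) and 0 higher, and the median was -0.34. They included kng1.L, the kininogen gene (11.62, 9.99 and 11.48), klkb1.L, whose protease cleaves kininogen (-1.10), and the antithrombin gene serpinc1.L (12.35, 11.24 and 11.91). The list of 13 plasma carriers had a median of 0.07. Its transthyretin gene ttr.L had 10.32, 8.46 and 11.20 and its transferrin gene tf.L 13.04, 12.21 and 13.25. The cobalamin carrier gene tcn2.L was higher with both compounds, at 6.89, 9.73 and 8.87. The S copies differed by only -0.04 for tf and 0.07 for tcn2. Of 12 lipoprotein genes 2 were higher (16.7%) and 3 lower (25%). They comprised apoa1.L (8.41, 10.91 and 8.29) and apoa4.S (0.86) above DMSO, and apom.L (-0.69), clu.L (-0.77) and apoe.L below it. The copy apoa1.S, at far higher levels of 13.34, 13.86 and 13.09, differed by 0.52, and apoa4.L by -0.16. The second probe set of apoe.L went the other way, at 0.28 against -1.21.

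**Figure D4:**
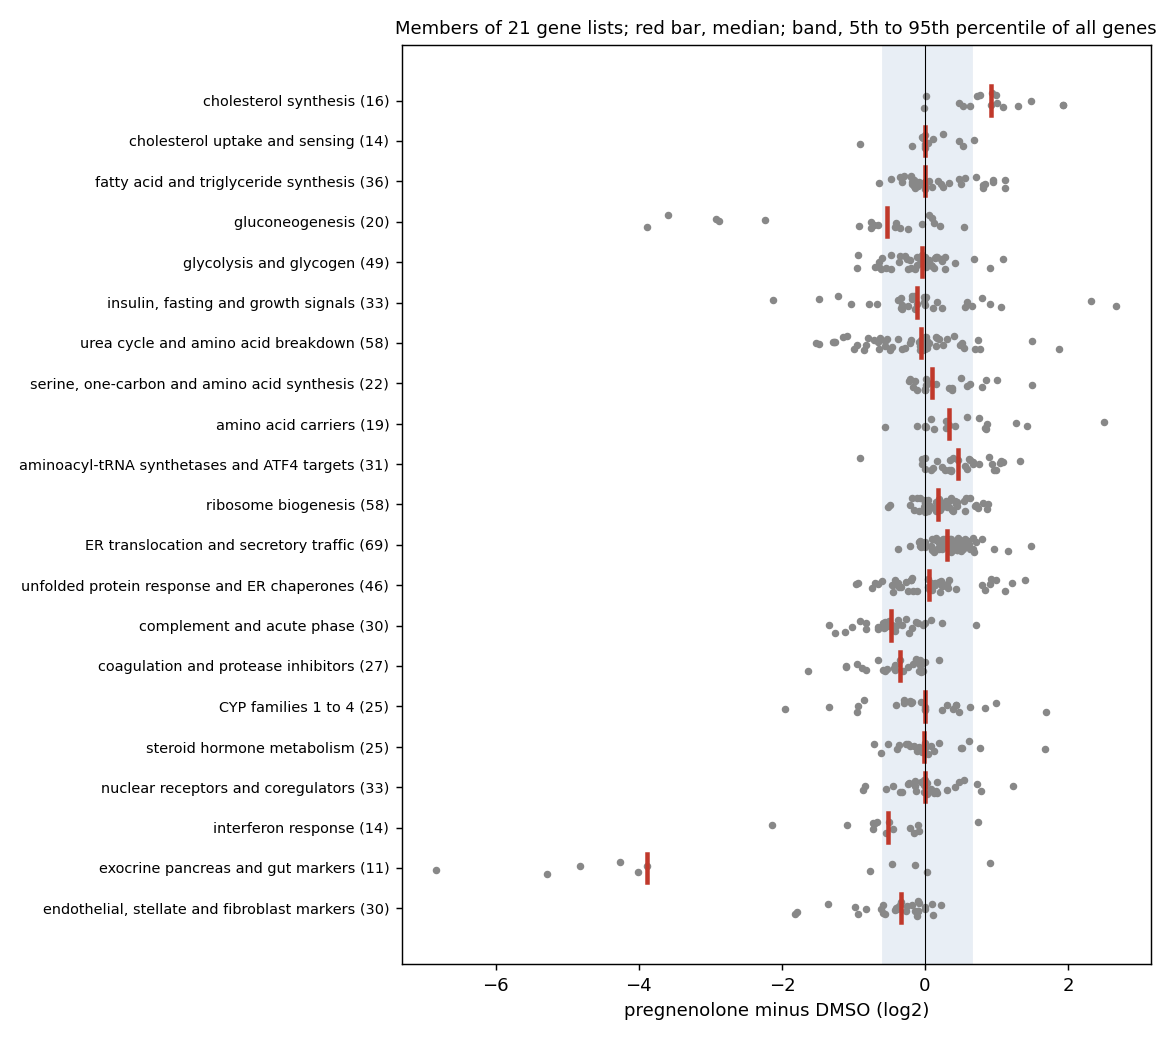
Differences between pregnenolone and DMSO (log2) of the members of 21 gene lists, 1 point per gene, with the number of measured genes after each name, a red bar at the median and a band from the 5th to the 95th percentile of all genes (-0.59 to 0.66). The median of cholesterol synthesis (0.93) lies above the band. That of the pancreas and gut markers (-3.88) describes the 11 members above the filter, some of them there through their DMSO value, and over all 47 members it is -0.13.

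Drug-metabolising genes, the targets that the receptor is known for, went in both directions. Of 25 genes of CYP families 1 to 4 and their partners 4 passed 1.5-fold above DMSO and 5 below it, and the median was 0.00. In the CYP2A group, cyp2a6.1.S had levels of 8.25 with DMSO, 9.94 with pregnenolone and 8.18 with artemisinin, and its L copy had 11.46, 10.51 and 11.42. The members cyp2a6.3.L (10.10, 8.77 and 9.12) and cyp2a6.9.L (12.55, 11.61 and 12.47) were also lower. One copy was therefore higher and the rest of those named lower within 1 subfamily, and cross-binding of probes was not tested. Outside it, cyp2f1.S (8.12 with DMSO, 8.96 with pregnenolone, 10.56 with artemisinin) and cyp3a4.2.L (8.06, 8.69 and 8.35) passed 1.5-fold above DMSO. Members within 1.5-fold included cyp2c8.2.L (0.43), cyp3a4.1.L (0.30), cyp3a5.L (-0.06) and cyp2b6.L (-0.29). The cytochrome b5 gene cyb5b.L, an electron donor to P450 enzymes, stood at 9.60, 10.59 and 9.33, and the fatty acid hydroxylase gene cyp4f2.L at 7.23, 5.27 and 7.20. Among conjugating enzymes 3 of 28 were higher and 6 lower, at a median of -0.09. The sulfotransferase genes sult6b1.1.L (-1.03), sult1c3.L (-1.02) and sult6b1.5.S (-0.92) were lower. Above DMSO, gstp1.L differed by 1.92 and the sulfotransferase gene sult1a1.S by 0.59. The gene sult2b1.S, which in mammals sulfates pregnenolone and cholesterol, was 0.97 higher from a level of 5.50 below the filter. Of 41 other phase I enzymes 1 was higher and 6 lower. Of 10 transporters of drugs and bile acids the counts were 1 and 1, the lower one being the efflux pump gene abcb1.L (-0.69). Over all genes 6.22% were higher and 5.03% lower. The shares were 16% and 20% for the CYP list and 10.7% and 21.4% for conjugating enzymes. They were 2.44% and 14.6% for other phase I enzymes, and 10% each way, a single gene, for the transporters.

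Steroid metabolism itself, for which pregnenolone is a substrate, had 3 of 25 genes above and 2 below DMSO at 1.5-fold, and the median was -0.02. The aldo-keto reductase gene akr1c2.L, of a family that reduces steroid ketones, was higher on both treated arrays, with 6.37 with DMSO, 8.05 with pregnenolone and 11.33 with artemisinin. The ferredoxin reductase gene fdxr.L and its partner fdx1.L, which pass electrons to the mitochondrial P450 enzymes of steroid synthesis, differed by 0.77 and 0.51. The membrane progesterone receptor component genes pgrmc2.S and pgrmc2.L differed by 0.61 and 0.51. The lower ones were hsd17b11.L (-0.71) and hsd11b1.L (-0.61), of which the latter reactivates glucocorticoids in mammals. Over all genes the shares were 6.22% higher and 5.03% lower.

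Among 33 nuclear receptors and coregulators 3 were higher (9.09%) and 2 lower (6.06%), beside 6.22% and 5.03% of all genes. Their median was 0.00. The gene nr1i2.S, whose symbol stands for the pregnane X receptor in mammals, had levels of 6.4 with DMSO, 7.63 with pregnenolone and 6.90 with artemisinin. Its second probe set had 6.09, 6.54 and 6.05, so the probe sets gave 1.23 and 0.44. What the frog receptor binds was not examined here. Also higher were ppara.L and the oestrogen receptor gene esr1.L (6.78, 7.51 and 6.60). Lower were nr1h5.S, which belongs to the farnesoid X receptor subfamily (8.83, 7.96 and 8.49), and rxrg.L, a partner receptor (7.13, 6.30 and 6.29). The gene nr1i3, which stands for the constitutive androstane receptor in mammals, was not analysed here. Of 15 genes of heme synthesis and breakdown 2 were higher (13.3%) and 0 lower. Heme synthesis supplies P450 enzymes, and both higher genes were copies of alas1, which encodes its first enzyme. They were alas1.L (8.99, 10.22 and 10.99) and alas1.S (9.62, 10.31 and 11.95), higher still with artemisinin. The related genes alas2.L and alas2.S differed by 0.54 and 0.32, within 1.5-fold.

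Interferon-responsive genes were mostly lower with pregnenolone. Of 14 measured genes 6 passed 1.5-fold below DMSO (42.9%) and 1 above it (7.14%), beside 5.03% and 6.22% of all genes. The median was -0.52 (0.46 with artemisinin). Over all 20 genes on the array, without the filter, the median was -0.19. The antiviral GTPase gene mx1.L had levels of 7.40 with DMSO, 5.26 with pregnenolone and 9.35 with artemisinin. The kinase gene eif2ak2.L, which senses double-stranded RNA, had 7.04, 5.95 and 7.64, and the guanylate-binding protein gene gbp1 had 6.24, 5.52 and 8.45. In all 3 the DMSO value lay between those of the treated arrays. Both irf8.L (-0.73) and irf2.L (-0.68) were lower with pregnenolone and lower still with artemisinin. By their median, leukocyte markers were slightly lower beside them. Of 25 measured of 35, 2 were at least 1.5-fold lower (8%, near the 5.03% of all genes) and 0 higher. Their median was -0.24, and their summed linear level was 23673 with DMSO, 19760 with pregnenolone and 20173 with artemisinin. The part of leukocytes in the interferon genes was not tested.

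Markers of other cell types in the tissue differed as follows. Of 30 measured markers of endothelium, stellate cells and fibroblasts, of 44 on the array, 9 were lower (30%) and 0 higher with pregnenolone. Over all genes 5.03% were lower. The median of these markers was -0.34, or -0.15 over all 44 without the filter. Their summed linear level was 23822 with DMSO, 17741 with pregnenolone and 20556 with artemisinin. The lowest were smooth muscle genes. The actin gene acta2.L had levels of 9.90 with DMSO, 8.08 with pregnenolone and 7.63 with artemisinin, and tagln.L had 9.19, 7.83 and 7.39. As with the digestive enzymes, the DMSO array was high and both treated arrays low. Of 13 biliary markers, of 19 on the array, 3 were lower (23.1%) and 0 higher, but the median was 0.00, with 6 above 0 and 6 below. The lower ones included sox9.S (7.52, 6.12 and 6.43) and the keratin gene krt19.S (10.66, 9.88 and 10.48). Their L copies differed by only 0.01 and -0.01. The summed linear level of the 13 biliary markers was 14179, 12374 and 12180. Of 17 erythrocyte markers, of 21, 1 was higher and 1 lower (5.88% each, near the 6.22% and 5.03% of all genes). Their summed linear level was 49716, 51829 and 44722.

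Both copies of a gene passed the filter for 1171 L and S pairs. Over these pairs the 2 differences correlated at Pearson r = 0.51, a description across genes whose points share both arrays and may share probes. In 62 pairs a copy differed by at least 2-fold, and the other copy had the same sign in 45, the opposite sign in 12 and no difference in 5. Both copies were at least 2-fold higher for higd1a, hmgcs1, pim3, slc7a8, spats2 and ssx2ip, and both lower for g6pc1.1, g6pc1.2 and tagln. Other pairs were far apart. The L copies of tcn2 (2.84), far1 (1.80) and glul (1.5) differed while their S copies were at 0.07, 0.00 and 0.16. Over all pairs, opposite differences of at least 0.5 in both copies occurred in 4, which were cyp2a6.1, pnrc2, a coactivator and mRNA decay gene (1.17 for L and -0.76 for S), fam3a (0.94 and -0.52) and the plasma glutathione peroxidase gene gpx3 (-0.58 and 0.57).

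**Figure D5:**
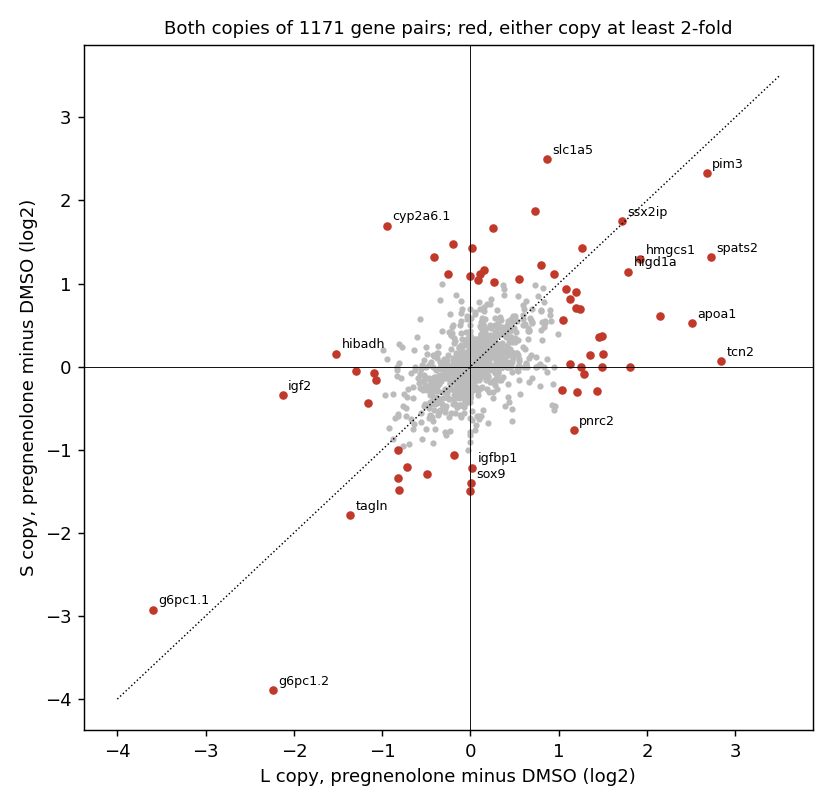
Difference of the S copy (log2, vertical axis) against that of the L copy (horizontal axis) for the 1171 gene pairs with both copies above the filter, pregnenolone minus DMSO. Of 62 pairs in which a copy differed by at least 2-fold, 45 lie in the quadrants of equal sign.

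Counted over all genes, 81 of 4320 L genes passed 2-fold above DMSO (1.88%) and 72 below it (1.67%). Of 2914 S genes, 52 were higher (1.78%) and 28 lower (0.961%). How far the probe sets of a gene disagree was read from the 1287 genes with more than 1 above the filter. The median gap between the differences of their probe sets was 0.14, and the 95th percentile was 0.70. These probe sets share both arrays and both RNA pools, so their gap gives no error of a pregnenolone minus DMSO difference. Of 42 such genes with a 2-fold difference at the first probe set, 19 had one at the second as well. Among them were mat2a.L, ikbkb.L, gstp1.L and stx5.L, a gene of vesicle fusion at the Golgi (1.33 and 1.39). Large gaps were found for tent5a.L (2.36 and 0.30), mtfp1.L (1.90 and 0.44) and the splicing factor family gene sugp1.S (1.33 and 0.01).

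Neighbouring genes were read from the order of the RefSeq annotation of assembly Xenopus_laevis_v10.1, in which 7424 of the 7478 genes were placed. Of 1931 adjacent pairs with both genes measured, 31 had both at least 1.5-fold different, 19 of them in the same direction. For comparison, 6.22% of all genes passed 1.5-fold above DMSO and 5.03% below it. Whether the 31 pairs are more than unrelated neighbours would give was not tested. At 2-fold 6 adjacent pairs had both genes different, and 5 of these went the same way. They were 3 pairs within the g6pc1 clusters, the complement proteases c1s.L and c1r.L, and adh1b.L with the gene MGC83376 beside it. The sixth was fmo5.2.S (-1.01), a drug oxygenase gene, beside the prostaglandin synthase gene ptgs2.S (1.60). The genes of a g6pc1 cluster are paralogs, and cross-binding of their probes was not tested. The centrosome and junction protein gene ssx2ip lies next to a yolk precursor gene in both subgenomes, vtga2.L and vtgb1.S. Its L copy had levels of 6.2 with DMSO, 7.92 with pregnenolone and 6.23 with artemisinin, and its S copy had 5.29, 7.04 and 5.29. The gene vtga2.L itself differed by 0.02 at a level of 14.37 with DMSO, near the array maximum of 14.6, where a difference may not show.

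Many of the largest differences have no gene name here. Of the 60 probe sets that differed most 28 had no single symbol, as did 86 of the 272 at least 2-fold higher and 117 of the 246 lower. The probe set Xl2.19490.1.S1_at had levels of 7.55 with DMSO, 11.37 with pregnenolone and 8.82 with artemisinin, and Xl2.8323.1.A1_at had 7.34, 11.15 and 8.46. Lower were Xl2.1893.1.S1_at, with 10.66, 4.74 and 9.56, and Xl2.1995.1.S1_at, with 8.96, 3.19 and 7.88. For all 4 the artemisinin value lay between the others and nearer to DMSO.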

How the data were processed

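The authors deposited log2 expression values of 3 arrays made by robust multiarray averaging (RMA), per the submitters' processing notes, in a version not given in the sources used here. RMA corrects for background, forces the arrays to 1 distribution and combines the probes of each set. It thereby removes any difference in total message between groups. The base 2 follows from how RMA is defined and from the range of values. For arrays their number limits the precision.

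Of 32635 probe sets 96 were controls. The platform annotation gave 1 symbol for 15495, several for 279 and none for 16765, and 2 symbols were updated through a RefSeq gene table. The pregnenolone minus DMSO difference was taken over probe sets with a mean of at least 5.61. The probe set with the highest mean stood for its gene. With 1 array per group no test was run. The named genes were drawn from a wider set, not all of which is described. It held the 30 genes furthest above and the 30 furthest below DMSO that carry a proper symbol. Up to 8 members of each of 51 gene lists, those with the largest absolute difference, were added. Further probe sets and L or S partners of these were added too. It also held nr1i2, alas1, por, hepatocyte markers, CYP2 and CYP3 genes, genes of steroid metabolism, and list members whose level the account of a list needs. Genes named for their gap between copies or probe sets or for their neighbours were chosen after their values were seen. So were atf4-iii beside its list and glul-like.1. The members and lists were chosen with earlier results of these data known. List members were counted at 1.5-fold. Promoter motifs were not analysed here.

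The alternatives were other level filters and folds, median centring, quantile normalization, removal of a lowess trend (fraction 0.3), a mean over a gene's probe sets, counting genes in place of probe sets, and leaving out those whose name marks cross-hybridisation. Exclusion of markers of other cell types was chosen after seeing the data. The steps, run in Python 3.11.15 with pandas 2.3.3, numpy 2.4.6 and statsmodels 0.14.6, were tested on simulated data.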

Additional observations from a re-analysis of the deposited data

How the results depend on the processing

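The counts of 272 higher and 246 lower probe sets followed the threshold and the filter. They were 892 and 801 at 1.5-fold, 83 and 86 at 3-fold, 171 and 149 with the filter at the upper quartile of levels, and 139 and 104 with 1 probe set per gene. Without a level filter they were 322 and 293, with both arrays above the filter level 239 and 181, with quantile normalization 260 and 255, and without markers of other cell types 271 and 234. Of the 49 gene lists with at least 5 measured genes, 11 had a median of at least 0.25 in either direction, a limit chosen after seeing the data, and 6 without the level filter. There the medians of the lists of interferon response (-0.19), pancreas and gut markers (-0.13), amino acid carriers (0.10), endothelial, stellate and fibroblast markers (-0.15) and yolk and oestrogen response (0.23) lay nearer to 0, as did that of insulin, fasting and growth signals (-0.02) and of conjugating enzymes (-0.03). Of 293 list medians under the alternatives, 2 moved by more than 0.240, the SD between probe sets of a gene. A further 7 changed sign, all of them medians close to 0. Of 2012 recomputed differences of named genes 33 moved by more than that SD, each with the mean of the probe sets. A change of sign was seen in 19, of which scp2.L passed 1.5-fold before (0.61, and -0.11 as the mean). With 1 array per group no array could be left out. No paired analysis was possible because each group has 1 array. Low signals near background set the size of the differences that start or end below the filter level.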
